A study of Mus musculus with 9 samples.

Results

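MyoD1 peaks were examined at 10 genes of the neuromuscular junction, Chrna1, Chrnb1, Chrnd, Chrng, Chrne, Musk, Rapsn, Dok7, Lrp4 and Ache. A peak was assigned to a gene when it overlapped the gene body or the 10 kb on either side of it (mm10, GENCODE M21). All 10 genes had at least 1 peak, and 120 of the 116126 peaks in the 6 lists lay at them, in 41 of 58309 merged regions. The libraries were CUT and RUN with an anti-Flag M2 antibody in C2C12, a mouse myoblast line. The cells carried 3xFlag-Halo on MyoD1 at its own locus and, in addition, a 3xFlag-Halo-MyoD1 transgene that doxycycline (dox) switches on. This genotype was shared by the 3 no dox libraries and the 3 +dox libraries, which had 6 h of dox, and the tagged line is a single-cell clone. Differentiation was induced in both groups, at the start of the 6 h with or without dox. Wild-type libraries were not analysed here, and a background from cells without the tag was therefore not set against these peaks.

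The neuromuscular junction is the synapse at which a motor neuron commands a muscle fibre. The nerve releases acetylcholine, which opens a pentameric receptor in the muscle membrane, and nerve-derived agrin clusters that receptor through Lrp4, the kinase MuSK, the adaptor Dok-7 and the scaffold rapsyn. MyoD1 is a basic helix-loop-helix factor that binds E-boxes, CANNTG, with a preference for CAGCTG, and receptor subunit promoters are textbook targets of the myogenic factors. No RNA was measured in these libraries, so the values concern binding only.

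Each peak has a maximum signal, the highest coverage in the interval scaled to library size (CPM). Height is given here as its percentile among all peaks of the same library, because every list was called on its own and has its own floor. Core regions are those called in at least 2 of 3 no dox libraries. Expanded regions are those called in at least 2 of 3 +dox libraries with not even 1 bp inside a Core region. Shared regions were called in all 6 libraries. At the 10 genes there were 12 Core, 7 Expanded and 10 shared regions, and 0 Core regions lacked a +dox counterpart.

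The lists were unequal. The 6 libraries held 9389 to 53661 peaks and 2868000 to 8030000 alignments, and +dox replicate 3 had both the longest list and the greatest depth. By construction, a list extended by weak peaks gives every strong peak a higher percentile. The libraries numbered 3 in both groups also stood apart: 34.9% and 26.7% of their peaks had a centre within 1 kb of a start site, against 53.0% to 62.4% in the other 4 libraries. The part of list length in the differences below was examined by ranking shared regions only against each other. As a check on the lists, Core regions were found at Myod1 (2), Mymk (2), Des (1) and Cdh15 (1), all active in myoblasts or in their fusion, and not at Myf5. With the same flanks, 35.4% of all protein-coding genes had a Core region. The Core regions of Mymk and Cdh15 were not centred within 1 kb of a start of their gene.

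The sequences at or beside the maxima are shown for their E-boxes, first at the regions called in nearly every library. They are followed by 2 regions called in fewer libraries, mostly with dox. The sequences are the strand of the gene, 5′ to 3′, from the RefSeq genome GRCm38.p6, with annotated UTR bases left out, and capitals mark CAGCTG and CAGGTG (or its complement CACCTG). The windows lie at chr2:73580339-73580498 (Chrna1 start), chr11:69795944-69796055 (Chrnb1 start), chr1:87190477-87190636 (Chrnd start, beside the maximum rather than over it), chr1:87205646-87205805 (Chrng intron), chr11:70622096-70622255 (Chrne upstream), chr2:91035460-91035619 (Rapsn start), chr2:91476021-91476180 (Lrp4 intron), chr5:35055196-35055355 (Dok7 upstream), chr5:35074146-35074305 (Dok7 intron), chr4:58288846-58289005 (Musk intron) and chr5:35071046-35071205 (Dok7 weak intron). Chrna1, Chrnb1 and Chrne are on the minus strand and the others on the plus strand.
Chrna1 start: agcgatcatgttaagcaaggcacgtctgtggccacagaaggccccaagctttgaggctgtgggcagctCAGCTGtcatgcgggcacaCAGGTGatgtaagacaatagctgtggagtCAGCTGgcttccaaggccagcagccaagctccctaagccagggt
Chrnb1 start: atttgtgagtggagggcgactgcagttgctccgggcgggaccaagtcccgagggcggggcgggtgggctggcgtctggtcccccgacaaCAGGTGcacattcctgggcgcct
Chrnd start: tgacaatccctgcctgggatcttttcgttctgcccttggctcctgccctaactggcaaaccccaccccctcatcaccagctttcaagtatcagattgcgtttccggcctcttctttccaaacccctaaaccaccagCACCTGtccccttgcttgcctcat
Chrng intron: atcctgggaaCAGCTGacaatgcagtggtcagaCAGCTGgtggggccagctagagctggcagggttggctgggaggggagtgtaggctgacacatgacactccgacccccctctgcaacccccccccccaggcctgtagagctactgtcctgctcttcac
Chrne upstream: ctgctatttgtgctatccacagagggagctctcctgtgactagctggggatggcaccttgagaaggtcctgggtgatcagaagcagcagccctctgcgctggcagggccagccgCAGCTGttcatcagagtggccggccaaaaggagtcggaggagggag
Rapsn start: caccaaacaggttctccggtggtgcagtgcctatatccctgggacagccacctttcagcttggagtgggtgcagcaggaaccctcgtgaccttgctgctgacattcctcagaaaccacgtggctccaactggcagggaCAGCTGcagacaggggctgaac
Lrp4 intron: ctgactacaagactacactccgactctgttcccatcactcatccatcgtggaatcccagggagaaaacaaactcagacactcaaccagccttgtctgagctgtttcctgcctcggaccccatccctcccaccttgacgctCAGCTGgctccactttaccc
Dok7 upstream: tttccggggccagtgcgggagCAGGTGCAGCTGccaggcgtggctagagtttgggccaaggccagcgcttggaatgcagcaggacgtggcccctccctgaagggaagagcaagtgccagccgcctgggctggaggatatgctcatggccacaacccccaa
Dok7 intron: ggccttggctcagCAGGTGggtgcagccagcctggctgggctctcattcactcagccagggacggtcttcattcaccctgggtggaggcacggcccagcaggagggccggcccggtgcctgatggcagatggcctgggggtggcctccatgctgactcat
Musk intron: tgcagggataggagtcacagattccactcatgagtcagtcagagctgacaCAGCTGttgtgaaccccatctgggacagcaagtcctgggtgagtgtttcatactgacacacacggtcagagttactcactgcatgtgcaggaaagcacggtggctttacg
Dok7 weak intron: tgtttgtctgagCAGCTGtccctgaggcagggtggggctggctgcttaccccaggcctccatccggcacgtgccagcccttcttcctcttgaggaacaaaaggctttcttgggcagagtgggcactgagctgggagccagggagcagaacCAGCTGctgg

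The Chrna1 window holds 2 CAGCTG and 1 CAGGTG. The Chrng intron and the weak Dok7 intron each hold 2 CAGCTG. Chrnb1 differs from the others, since its whole region has no CAGCTG and its closest CAGGTG lay 12 bp from the maximum. Both motifs are forms of CANNTG. Over complete regions, read on both strands, CAGCTG was present in 9 of 10 shared regions at the 10 genes, beside 85.37% of the 4838 shared regions in the genome. It was present in 11 of 12 Core regions (76.44% of all Core regions) and in 6 of 7 Expanded regions (62.67% of all Expanded regions). Within 100 bp of the maximum, CAGCTG was found in 5 of 10 shared regions and 46.32% of all shared regions. CAGGTG was found there in 5 of 10, against 18.19%. The N-box CCGGAA is a site for ETS factors known from the receptor delta and epsilon subunit promoters. Over complete regions it occurred in 7 of 10 shared regions and in 48.2% of all. Within 100 bp of the maximum it was found in 2 of 10, against 10.77% of all. These 2 were the region 7508 bp upstream of Chrnb1 and the Dok7 upstream region, and not the shared regions of Chrnd or Chrne. A match of letters is a description and does not show a bound site.

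All 10 genes had a Core region, against 35.4% of 21924 protein-coding genes given the same flanks. A region called in all 6 libraries was present at 8 of 10 genes (21.7% of all), and a Core region centred within 1 kb of one of the gene's own start sites at 7 of 10 (23.4% of all). The median length of the loci, flanks included, was 31.0 kb against 37.4 kb for all protein-coding genes. The map of peaks around the 10 genes shows where each library had a call.

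**Figure D1:**
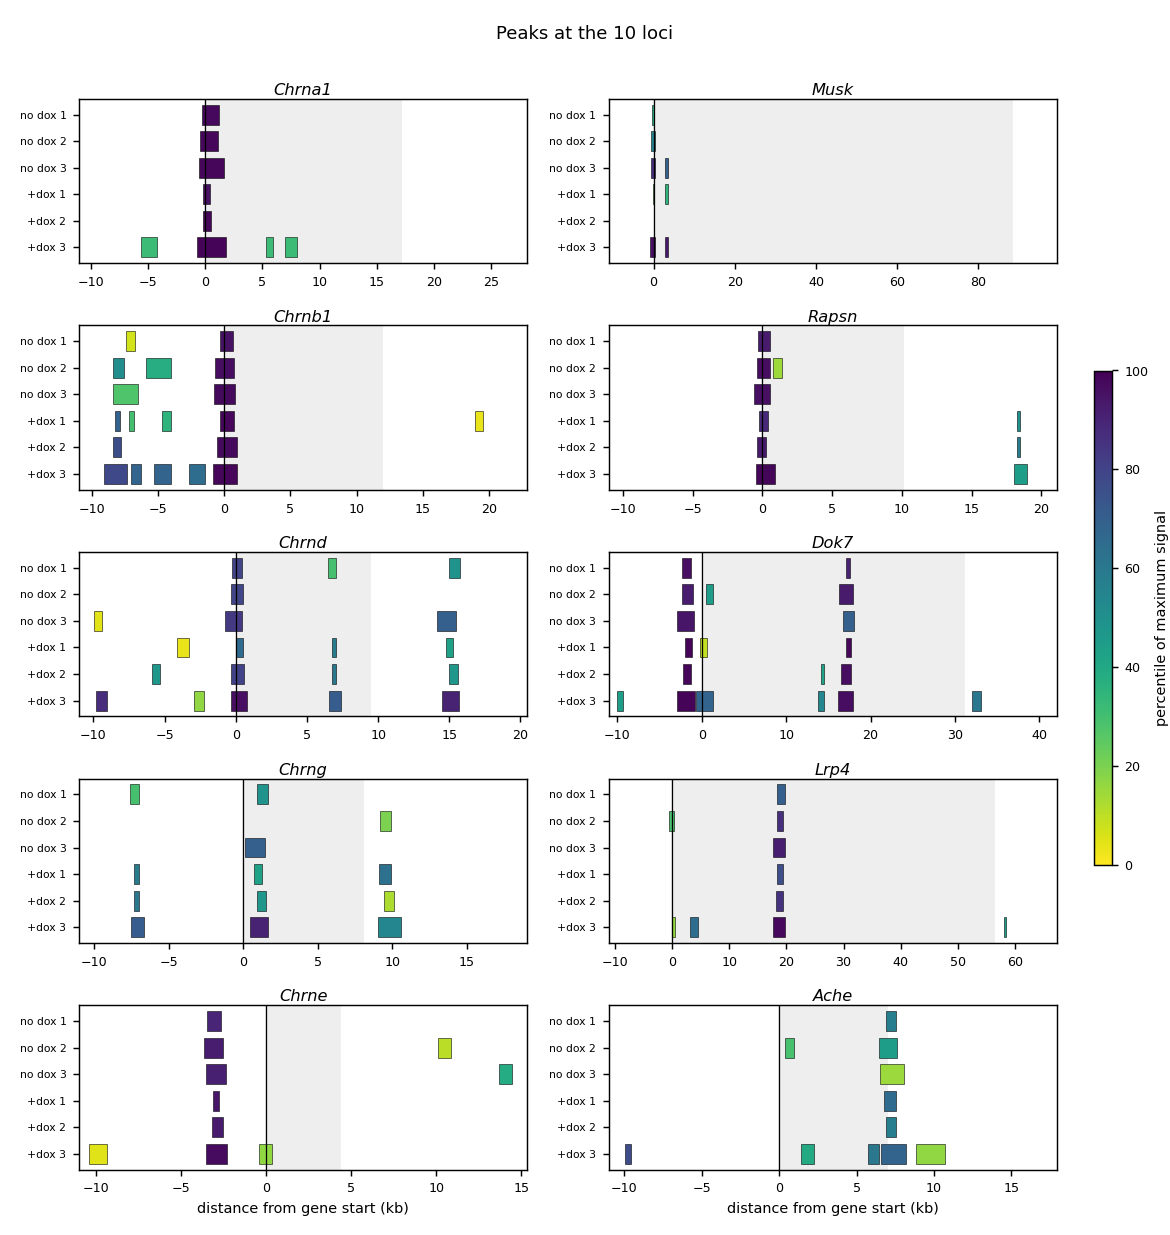
Peaks at the 10 loci, plotted by distance from the gene start in kb and in the direction of transcription, with 1 row for each library, grey for the gene body and colour for the percentile of maximum signal. Chrna1, Chrnb1, Chrnd and Rapsn have peaks at the start in all 6 rows, whereas the recurrent peaks of Chrne, Dok7, Lrp4 and Ache lie away from it.

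Chrna1 encodes the alpha subunit, which carries most of each acetylcholine-binding site. Its region (chr2:73578551-73581000) had its maximum 63 bp upstream of the gene start. The percentiles were 97.7, 98.1 and 98.2 without dox and 95.4, 98.1 and 99.1 with dox, from 117 to 302 alignments at the maximum. It was thus among the strongest few percent of sites in every library, and the groups overlapped, around averages of 98.0 ± 0.281 without dox and 97.5 ± 1.90 with dox (SD, n = 3). Ranked among shared regions alone, the same site went from 95.5, 95.3 and 95.1 without dox to 88.4, 94.9 and 90.1 with dox, so that all +dox values were lower. The other 3 regions of the locus were called in +dox replicate 3 alone.

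Chrnb1 encodes the beta subunit, through which the receptor is tied to the clustering machinery. The start region (chr11:69795001-69796800) peaked 33 bp upstream of the gene start, at percentiles of 95.5, 96.8 and 97.5 without dox and 98.2, 97.6 and 98.4 with dox. The groups did not overlap, with a difference of 1.47 points in the means, or 0.902 without no dox replicate 1. On the ranking among shared regions the difference was -1.20 points and the groups overlapped, so its direction depends on the ranking. A second shared region lay 7508 bp upstream, outside any gene and 1794 bp from a start of Fgf11, the neighbouring growth factor gene. It was weak without dox (6.80, 51.0 and 27.5) and higher with dox (68.9, 76.6 and 78.5), a difference of 46.2 points. This interval of 2800 bp joins separate peaks: the highest peaks of the 6 libraries have no base in common, whereas those of the other 9 shared regions do. An Expanded region 4333 bp upstream, in an intron of Fgf11, was called in no dox replicate 2 and in +dox replicates 1 and 3.

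Chrnd encodes the delta subunit and lies next to Chrng, which encodes the gamma subunit of the fetal receptor. The Chrnd start region (chr1:87189851-87191400) had its maximum in the first coding exon, 94 bp downstream of the gene start. Percentiles were 80.0, 79.1 and 83.5 without dox and 65.3, 80.2 and 96.2 with dox. The +dox libraries therefore spanned the no dox values, and the means differed by -0.300 points. The Chrng Core region (chr1:87204751-87206350) lay in an intron 1069 bp downstream of the gene start and 84 bp from the start of another Chrng transcript. It was called at 48.5 and 70.0 in no dox replicates 1 and 3, was missing from replicate 2, and stood at 43.0, 46.9 and 90.5 with dox.

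An Expanded region (chr1:87197101-87198000) lay in an intron of Chrnd and within the flank of Chrng. It was called at 29.3 in no dox replicate 1 alone and at 58.4, 60.5 and 70.8 with dox. It has 1 CAGCTG, 122 bp from the maximum. Another Expanded region 9432 bp past the Chrng start was at the start of Eif4e2, a cap-binding translation factor, with calls in no dox replicate 2 and all 3 +dox libraries. Chrnd had 3, 1 and 3 peaks without dox and 4, 4 and 5 with dox. Chrng had 2, 1 and 1 without dox and 3, 3 and 3 with dox. These were the 2 of 10 loci with more peaks in every +dox than in every no dox library, where 4.29% of 15740 loci with a peak did so (exact two-sided permutation p = 0.1 each, the smallest possible with 3 against 3, and adjusted p = 1). The 2 loci share 2 regions and are not independent.

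Chrne encodes the epsilon subunit that replaces gamma in the adult receptor. Its own start was called in +dox replicate 3 alone, from 8 alignments. The recurrent region (chr11:70621501-70622900) was 2960 bp upstream, outside any gene, with CAGCTG 37 bp from the maximum. It ranked at 89.7, 91.8 and 91.2 without dox and at 93.9, 93.0 and 97.1 with dox. The groups did not overlap and the means were 3.78 points apart, but among shared regions alone they overlapped with a difference of 0.772 points.

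Musk encodes the receptor tyrosine kinase of the agrin pathway. Its start region (chr4:58285101-58286400), with CAGCTG 21 bp from the maximum, was called at 36.6, 56.2 and 86.6 without dox, and at 23.0 and 96.2 in +dox replicates 1 and 3. In +dox replicate 2 the locus had 0 peaks. An intronic Expanded region 2966 bp past the gene start had a percentile of 70.0 in no dox replicate 3, 35.5 in +dox replicate 1 and 93.7 in +dox replicate 3. Calls at Musk thus varied widely between replicates of a group, and the locus had a mean of 1.33 peaks in both groups.

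Lrp4 encodes the agrin receptor. The gene start was called in no dox replicate 2 and +dox replicate 3, from 14 and 8 alignments. A stronger region (chr2:91475101-91477350) lay 18590 bp inside the gene, in an intron, with its centre 30 bp from the start of a shorter noncoding Lrp4 transcript. Its percentiles were 70.2, 86.0 and 91.7 without dox and 76.3, 85.2 and 97.9 with dox. The groups overlapped, and among shared regions alone the means differed by -0.124 points.

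Dok7 encodes the cytoplasmic activator of MuSK and had 2 shared and 2 Expanded regions. The upstream region (chr5:35053851-35055950), 1490 bp before the gene start, ranked at 96.1, 92.4 and 94.2 without dox and at 98.7, 98.2 and 98.9 with dox. It has 5 CAGCTG. The intronic region (chr5:35072951-35074750), 17460 bp past the start, ranked at 90.9, 92.7 and 70.0 without dox and at 98.2, 96.7 and 96.5 with dox. In both regions all +dox values were higher, by 4.36 and 12.6 points in the means. Without no dox replicate 3, the library at 70.0, the difference at the intronic region was 5.30 points. Ranked among shared regions alone the differences were 7.72 and 16.6 points, larger than on the whole lists, but the groups overlapped because +dox replicate 3 fell to 88.9 and 68.0. In CPM the mean maximum of the upstream region was 20.7 without dox and 72.8 with dox, and the groups did not overlap.

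The Expanded regions of Dok7 were weaker. That at 1010 bp past the gene start was called in no dox replicate 2 and in +dox replicates 1 and 3, at percentiles of 44.9, 9.05 and 68.0. That at 14360 bp, in an intron, was called at 42.4 and 54.0 in +dox replicates 2 and 3 and in no other library, from 22 and 14 alignments.

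Rapsn encodes the scaffold that holds receptors in clusters. Its start region (chr2:91035051-91037000) peaked 44 bp upstream, with CAGCTG 25 bp from the maximum, at 92.9, 96.7 and 96.0 without dox and 88.8, 93.2 and 98.8 with dox. The groups overlapped, around averages of 95.2 ± 2.00 without dox and 93.6 ± 5.02 with dox (SD, n = 3). The Expanded region of this locus (chr2:91053651-91054600) was 26 bp from the start of Psmc3, a proteasome ATPase, and not at a start of Rapsn. It was the 1 of 41 regions present in every +dox library and absent from every no dox library, as were 1.09% of merged regions.

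Ache encodes acetylcholinesterase, which ends transmission by breaking down acetylcholine. Its shared region (chr5:137293251-137295700) had its maximum 85 bp past the end of the gene and its centre 153 bp from a start of Ufsp1, a UFM1-specific protease. The percentiles were 57.7, 44.9 and 14.9 without dox and 65.3, 57.6 and 68.0 with dox, which overlapped narrowly. Calls near the Ache starts were limited to no dox replicate 2 (14 alignments) and +dox replicate 3 (11 alignments).

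**Figure D2:**
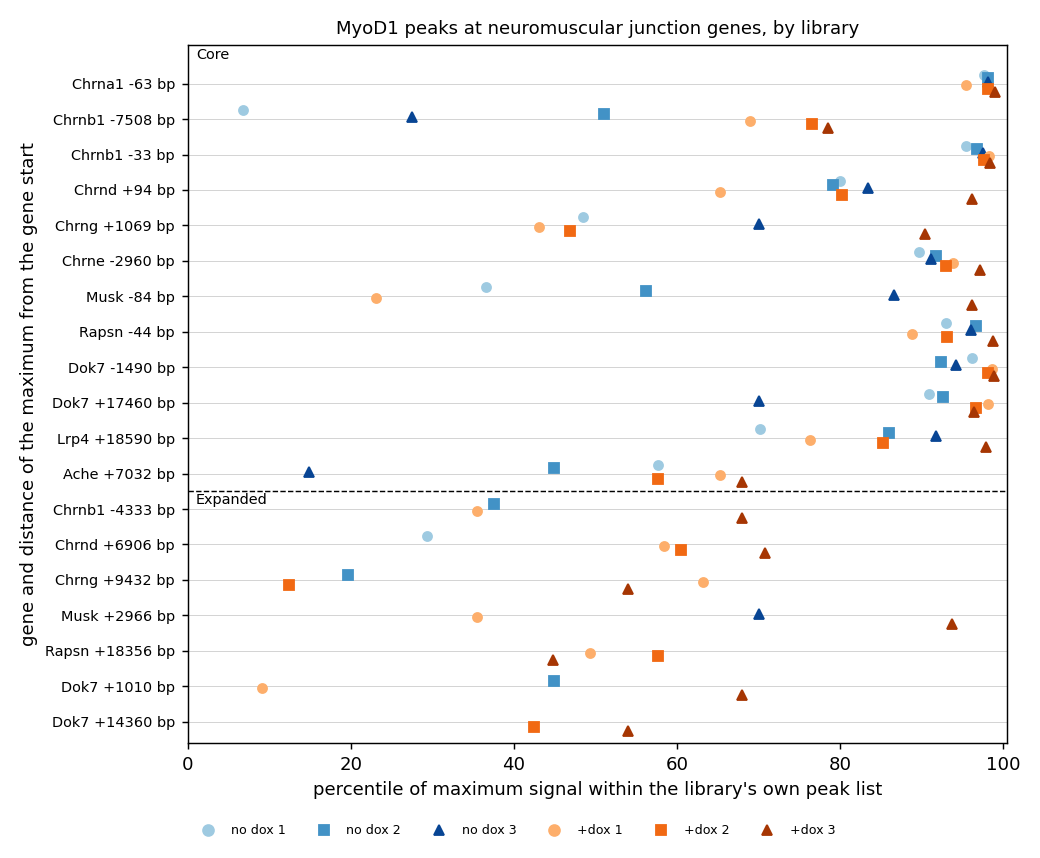
Percentile of maximum signal within the library's own list (x axis) for the 12 Core and 7 Expanded regions at the 10 genes, with a point for each library that called the region and labels that give the distance of the maximum from the gene start. The start regions of Chrna1, Chrnb1 and Rapsn and the upstream regions of Chrne and Dok7 (2960 and 1490 bp from the start) lie at 88.8 or above in every library, whereas the Expanded regions have calls from 9.05 to 93.7.

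Shared regions at the 10 genes were taller than most. The median of their mean percentiles was 91.8, beside 76.2 for all 4838 shared regions. Peaks within 1 kb of a start of any gene had medians that differed from those of the other peaks of the loci by 20.5, -46.9 and 15.0 points without dox and 29.8, 3.64 and 1.69 with dox. The mean was 3.96 points, beside 1.70 over whole lists. Its direction turned to -1.21 without +dox replicate 1 and to -7.38 with 5 kb of flank, and its size moved to 0.647 without no dox replicate 1, 14.1 without no dox replicate 2, 1.75 without no dox replicate 3 and 25.95 with no flank. When starts of the 10 genes alone were counted, peaks near them exceeded the other peaks of the loci in every library, by 27.8, 34.2 and 50.6 points without dox and 22.5, 30.1 and 33.8 with dox. Peaks at starts of neighbouring genes had medians of 26.7 to 63.1. These values rest on 6 to 11 peaks at own starts and 1 to 8 at neighbouring starts in a library. Own starts include those of noncoding transcripts, such as the one inside Lrp4. The same contrast was not computed for other genes, so it cannot be called particular to these.

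**Figure D3:**
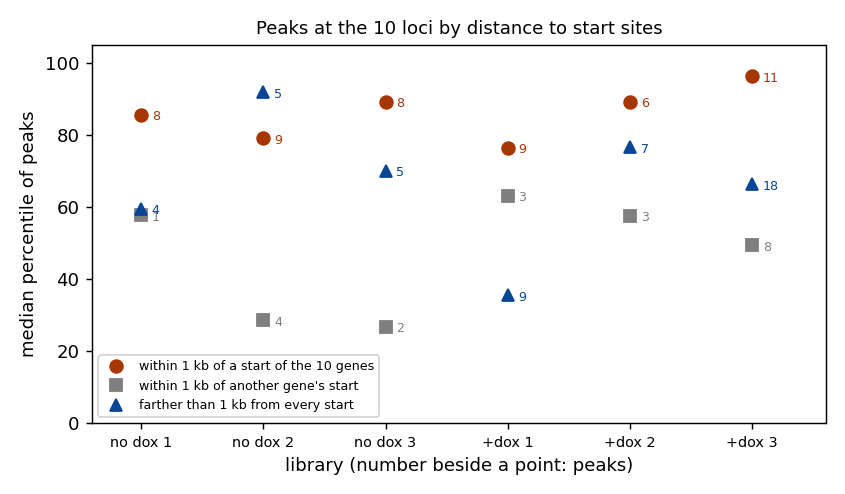
Median percentile of the peaks at the 10 loci in each library, for peaks within 1 kb of a start of the 10 genes, within 1 kb of another gene's start, or farther than 1 kb from every start, with the number of peaks beside each point. Peaks at own starts have the highest median in 5 of 6 libraries, the exception being no dox replicate 2, where the 5 distal peaks have a median of 91.8.

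The comparison of no dox with +dox asks whether raised MyoD1 changes binding at these genes. There were 13, 18 and 15 peaks at the 10 loci without dox (15.3 ± 2.52, SD, n = 3) and 21, 16 and 37 with dox (24.67 ± 10.97, SD, n = 3). The groups overlapped, and without +dox replicate 3 the difference fell from 9.33 to 3.17 peaks. Of the 41 regions, 14 were called in +dox replicate 3 alone (59.2% of all merged regions were), from 6 to 28 alignments at the maximum. Expanded regions were 7 of 20 +dox consensus regions at the loci, beside 38.5% of all +dox consensus regions. Core regions without a +dox counterpart were 0 of 12, beside 10% of all Core regions.

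At 5 of 10 shared regions every +dox percentile exceeded every no dox percentile, and at 0 of 10 every +dox percentile was lower. Among all shared regions these shares were 23.7% and 0.0413%. Without +dox replicate 3 the count was again 5 of 10 (24.0% of all), with replicates 1 and 2 only it was 4 of 9 (30.1% of all), and with all lists cut to equal length it was 0 of 8 (2.13% of all). The 5 were both Chrnb1 regions, both Dok7 regions and the Chrne region, each with an exact two-sided permutation p = 0.1 (n = 3 and 3), the smallest possible, and adjusted p = 0.421 over 4838 regions. Among them, the region 7508 bp upstream of Chrnb1 joins separate peaks. It was no longer called in all libraries with replicates 1 and 2 only, with lists of equal length or with one floor of total signal. The adjusted p of the 10 ranged from 0.421 to 1, and 0 of the 4838 regions could have an unadjusted p under 0.05. The median difference was 3.82 points at the 10 genes and 6.40 over all shared regions. It fell to 1.92 without +dox replicate 3 (1.91 over all) and 2.04 without no dox replicate 1 (4.48 over all), rose to 5.83 without +dox replicate 1 (9.64 over all), was 1.47 with no flank (6.40 over all), and was -0.724 with lists of equal length (-0.831 over all). In CPM, with no ranking, 5 of 10 were higher in every +dox library, beside 27.5%, and these were the regions of Chrnd, Chrne, Rapsn, Lrp4 and the upstream region of Dok7.

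When shared regions were ranked among themselves, 0 of 10 were higher in every +dox library, beside 3.56% of all, and 1 of 10, Chrna1, was lower, beside 4.44%. This count rests on +dox replicate 3: without it, in an alternative chosen after seeing the data, 5 of 10 were higher on the same ranking (19.4% of all) and 2 of 10 lower (15.6% of all). With all 6 libraries on this ranking, the median difference was 0.324 points, beside 0.195 over all shared regions. The Dok7 upstream and Chrne regions were higher with dox in the whole lists and in CPM, but overlapped when ranked among shared regions. A rise or fall at single regions could not reach significance with 3 libraries in each group.

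**Figure D4:**
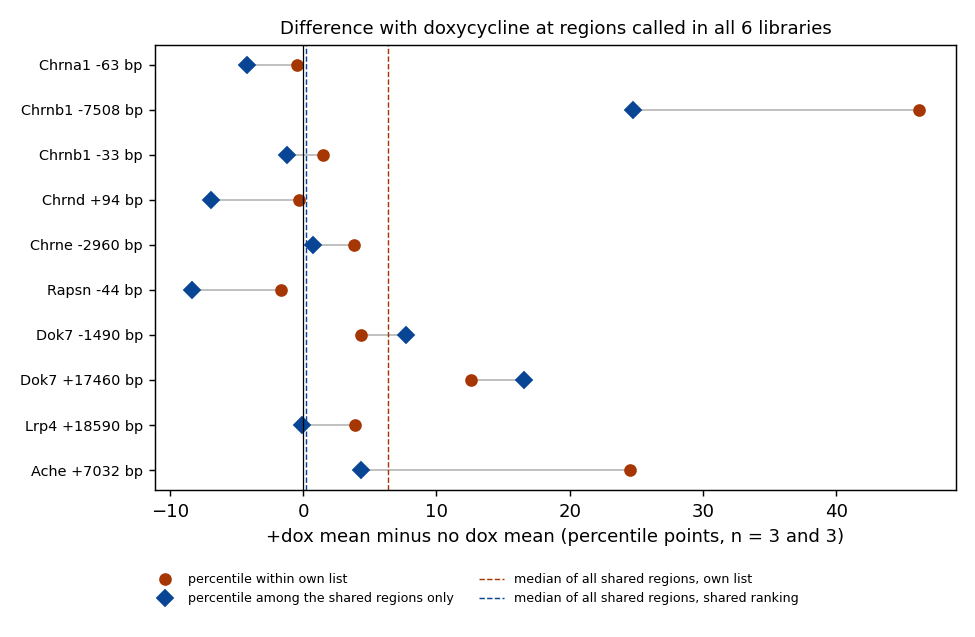
Difference of the group means (+dox minus no dox, in percentile points, n = 3 and 3) for the 10 shared regions, as percentile within the whole list (circles) and among shared regions only (diamonds), with dashed lines for the medians of all 4838 shared regions. The circles run from -1.64 at Rapsn to 46.2 at the region 7508 bp upstream of Chrnb1, and the diamonds from -8.36 at Rapsn to 24.7 at the same Chrnb1 region, which joins separate peaks.

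Another 22 genes of the junction were read in the same way, from agrin and the neuregulin receptors to cytoskeletal and membrane partners. Of these, 15 had a Core region (35.4% of all protein-coding genes), 13 a region in all 6 libraries (21.7%) and 11 a Core region at an own start (23.4%). These loci were longer, with a median of 88.0 kb. Nrg1, the neuregulin gene, and Ncam1, a neural cell adhesion molecule, had 4 Core regions each, and Agrn had 0. With flanks, these loci spanned 1089479, 316790 and 52199 bp, so their counts do not cover equal lengths. Of the 29 Core regions at the 22 genes, 1 at Nrg1 and 1 at Syne1 lacked a +dox counterpart, beside 10% of all Core regions. Of 20 shared regions at the 22 genes, 4 were higher with dox in every library and 0 lower by own list. These shares were near the 23.7% and 0.0413% of all shared regions. Ranked among shared regions, 1 was higher and 1 lower (3.56% and 4.44% of all). The median difference was 4.91 points by own list. Peak numbers were higher in every +dox library at Cttn, the cortactin gene (1, 1 and 1 against 3, 2 and 6) and Ncam1 (4, 5 and 4 against 6, 6 and 13), which are 2 of 22 loci beside 4.29% of all loci with a peak (exact two-sided permutation p = 0.1 and adjusted p = 1 for each).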

How the data were processed

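The 10 genes, the gene lists and the tests were chosen with earlier results of these data known. The authors aligned the CUT and RUN reads to mm10 with nf-core/cutandrun, removed blacklisted regions, scaled coverage to CPM and called peaks in each library with SEACR in relaxed mode. Each deposited list gives the total signal and the maximum signal of a peak, the 2 values used here. No spike-in scale was applied to them here. All maximum signals were whole multiples of a step within 0.05, the worth of 1 alignment, which gave the depths. Between 94.8% and 99.2% of these maxima were even numbers of alignments, so intervals that treat alignments as independent were not given.

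Regions were peaks of the 6 lists merged where they overlapped. Named regions are those in at least 2 of 3 libraries of a group, and printed sequences are from 8 shared regions, without the 2 nearest to neighbouring genes, and from 3 regions with more +dox calls. Groups were compared with exact permutation tests that used all 20 ways to assign the libraries to groups of 3, with Benjamini-Hochberg adjustment over all shared regions or all loci. Replicates are labelled as biological. The labels give no pairing or batch, so numbers were not taken as pairs in the main comparison. Same-numbered libraries deviated together with correlations of 0.367, -0.00972 and 0.493, and whether they share a batch was not tested. RefSeq promoter windows of 8 genes matched the genome in 8 of 8 cases, and 0 peaks ended past a chromosome. Methods were tested on simulated data. Alternatives left out libraries and changed the flank, the ranking, the consensus rule and the promoter distance. Software was Python 3.11.15, NumPy 2.4.6, pandas 2.3.3, SciPy 1.17.1 and pysam 0.24.0.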

Additional observations from a re-analysis of the deposited data

How the results depend on the processing

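The Core count stayed between 9 and 12 under all alternatives. Expanded regions numbered 3 to 10 when a library was left out (4 without +dox replicate 1 and 3 without +dox replicate 3), 3 with lists of equal length, 4 with no flank and 4 when 3 of 3 libraries were required. Core regions without a +dox counterpart were 0 to 1 when a library was left out, and 1 with replicates 1 and 2 only, with lists of equal length and with 3 of 3 libraries. Shared regions higher in every +dox library were 5 or 6 when a library was left out (24.0% to 36.2% of all shared regions), 0 with lists of equal length (2.13%), 2 with one floor of total signal (8.96%), 3 by total signal (24.5%), 0 ranked among shared regions (3.56%) and 2 with no flank (23.7%). Lower ones were 1 ranked among shared regions (4.44%). On that ranking without +dox replicate 3, an alternative chosen after seeing the data, 5 were higher (19.4%) and 2 lower (15.6%). The promoter minus distal value was 33.2 with starts of the 10 genes only, -1.21 to 14.1 when a library was left out, -7.38 with 5 kb of flank and 25.95 with no flank. The median difference was 1.92 to 5.83 when a library was left out, 1.47 with no flank and -0.724 with equal lists. The causes were not tested. The Chrnb1 start region reversed to -0.685 points with equal lists and to -1.20 among shared regions. With the replicate block, 6 regions were higher (35.7% of all) and 0 lower (1.01%), the median difference was 3.82 and the peak difference 9.33. Of 106 recomputed region differences, 10 changed sign.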
